A study of Mus musculus with 9 samples.

Results

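The growth hormone receptor, Stat5 and Igf axis was examined in the liver as 10 genes: Ghr, Stat5b, Cish, Socs2, Bcl6, Cux2, Igf1, Igfals, Igfbp1 and Igfbp2. They were taken as the named genes of the axis and not by a threshold on measured values, though with earlier results of these data known, and all 10 were among the 19938 genes measured with at least 1 probe set of that symbol alone. Socs2 had 2 probe sets, which were averaged, and each other gene had 1. Each of 9 Affymetrix Mouse Gene 1.0 ST arrays gave a log2 signal per gene for the liver RNA of a mouse. The N-control group (n = 3 arrays) held wildtype C57BL/6J control littermates, and the OB-control group (n = 3) held ob/ob mice of the strain B6.V-Lepob/J, which make no working leptin in any tissue. The OB-TUDCA group (n = 3) held the same ob/ob strain given tauroursodeoxycholic acid, a bile acid conjugated with taurine, at 500 mg/kg by gavage 2 times a day for 3 weeks. Both other groups had tap water by the same route. All were male, were 6 weeks old when bought, ate normal chow and were killed after 8 h of fasting.

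Growth hormone is released from the pituitary in pulses and binds the receptor Ghr on hepatocytes, whose kinase Jak2 then phosphorylates Stat5b, a transcription factor that enters the nucleus. Stat5b is known to switch on Igf1, the circulating growth factor, Igfals, the subunit that keeps it in a long-lived serum complex, and the feedback inhibitors Cish and Socs2. Bcl6 and Cux2 are transcription factors that differ between the sexes, as the pulses of males favour Bcl6 in the liver and the steadier hormone of females favours Cux2. Igfbp1 and Igfbp2 bind insulin-like growth factors in serum. Igfbp1 is known to be held down by insulin, and Igfbp2 to rise with leptin.

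The main difference in the axis was in Igfbp2, which fell 8.49-fold in OB-control and 9.74-fold in OB-TUDCA compared with N-control mice. Ghr fell 1.44-fold in OB-TUDCA compared with N-control mice, a call that other settings and most left-out arrays ended. No gene of the axis passed the test between OB-TUDCA and OB-control mice, where Igfbp1 had the largest difference of the 10, 2.45-fold higher with TUDCA. Igf1, Igfals, Stat5b, Cish and Socs2 had lower means in both ob/ob groups than in N-control mice, and Bcl6 and Cux2 higher means.

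Groups were compared two-sided with limma, a linear model that shares information on the spread across genes, in a fit of all 9 arrays. Genes with a Benjamini-Hochberg adjusted p under 0.05 over all 19938 genes are said to have risen or fallen. In OB-control against N-control, 1 of the 10 genes passed, a fall, where 0.948% of all genes passed and 0.492% fell. At an unadjusted p under 0.05, 4 of the 10 were lower, as were 5.59% of all genes (12.1% in either direction). In 4 of the 10 every OB-control array lay below every N-control array, as in 6.77% of all genes (15.3% without overlap in either direction). The median log2 difference of the 10 was -0.40, against 0.02 over all genes. In OB-TUDCA against N-control, 2 of 10 passed, both falls, where 3.24% of all genes passed, 1.35% up and 1.89% down. At an unadjusted p under 0.05, 5 of the 10 were lower, as were 8.15% of all genes (18.5% in either direction). The arrays did not overlap for 6 of the 10 (20.7% of all genes), of which 5 were lower (8.95%) and 1 higher (11.8%), and the median log2 difference was -0.19, against 0.04 over all genes. In OB-TUDCA against OB-control, 0 of 10 passed in limma, where 0.301% of all genes did. Only Igfbp1 had an unadjusted p under 0.05, and was higher, as were 6.26% of all genes (12% in either direction). Only Cish did not overlap, and was higher, as were 7.26% of all genes (13.8% in either direction). The median was -0.05, against 0.01 over all genes. Each pair of these comparisons shares a group of arrays, so none is independent of the others.

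**Figure D1:**
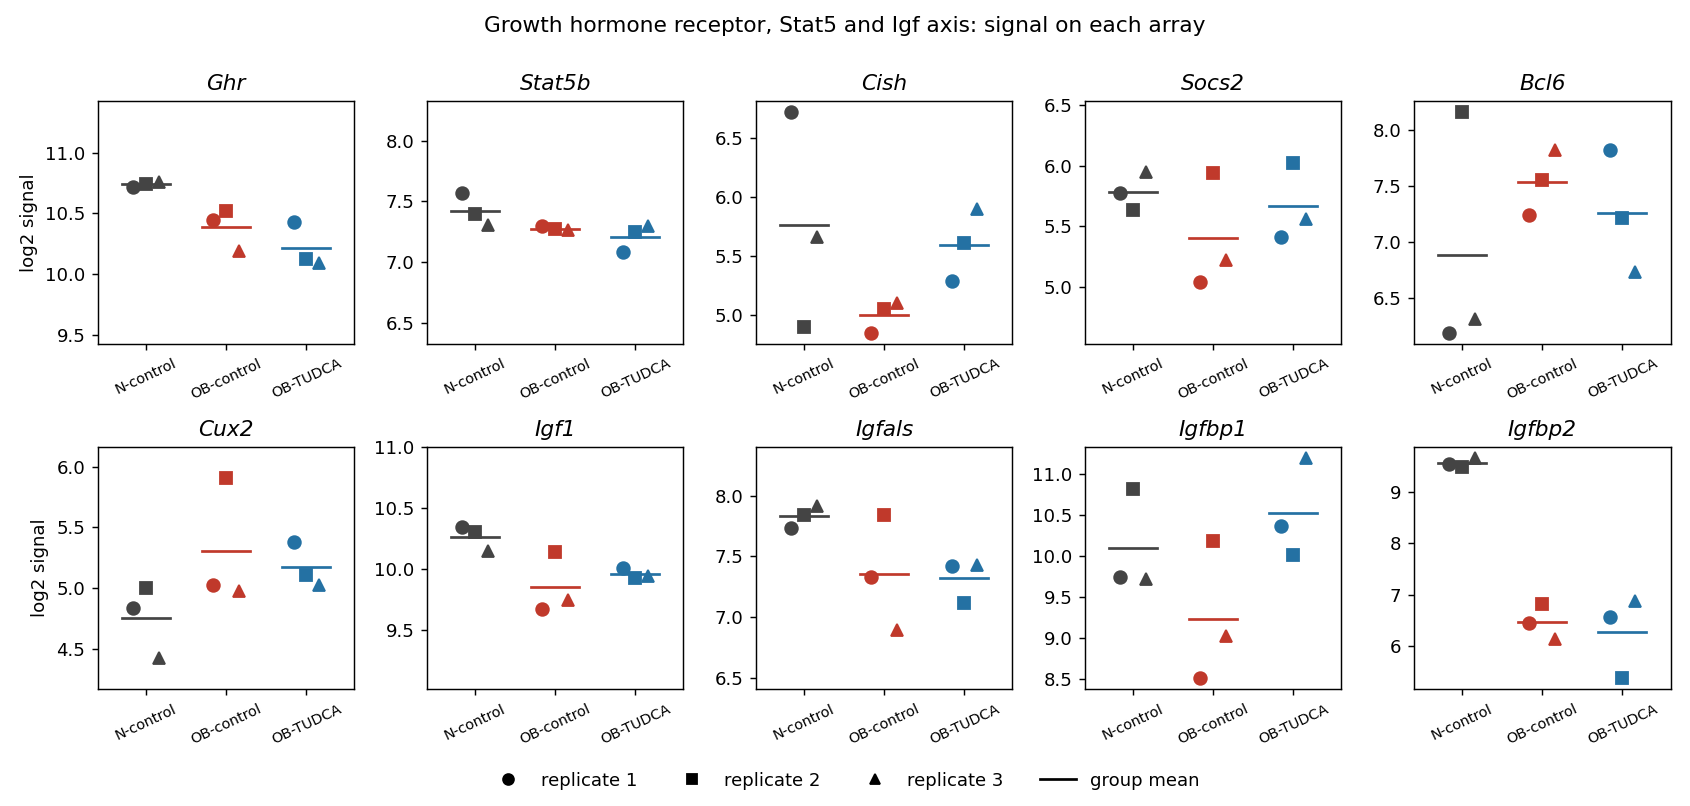
Log2 signal of the 10 genes on each of the 9 arrays (vertical axis of each panel, at least 2 log2 units high) by group, with points shaped by replicate number and a line at the group mean. Igfbp2 lies between 9.48 and 9.67 in N-control mice and at or below 6.88 in every ob/ob array, while Bcl6 spreads from 6.19 to 8.16 within N-control mice.

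N-control replicate 2 stood apart by genes of the exocrine pancreas, as all 11 measured acinar genes, such as Cpa1 and Ctrb1, were highest there, with a mean log2 signal of 10.81 against 3.89 to 4.50 in the other 8 arrays. OB-control replicate 2 stood apart within the axis, with the highest signal of its group for 7 of the 10 genes of the axis and the lowest for none. It was picked out by the values of these same genes. Fits without it therefore describe the weight of that array and are no support for a difference. The label of liver held, as the 8 hepatocyte markers, among them Alb and Ttr, had mean log2 signals of 12.49 on all N-control arrays, 12.27 to 12.45 in OB-control and 12.42 to 12.48 in OB-TUDCA mice. The means of 6 Kupffer cell markers (6.61 to 7.39 over all arrays) overlapped between all groups. Those of 6 sinusoidal endothelial markers were 7.19 to 7.34 in N-control, 7.11 to 7.45 in OB-control and 7.38 to 7.44 in OB-TUDCA mice. Those of 4 cholangiocyte markers were 4.75 to 5.25 in N-control and 4.68 to 4.91 in OB-control mice, and lay above the latter in OB-TUDCA mice, up to 5.23. The means of the 6 stellate cell markers were 7.14 to 7.17, 7.16 to 7.23 and 7.26 to 7.49, highest in the treated group. The part of these cell types in the values of the axis was not tested. The adipocyte genes Adipoq and Plin1 lay between 2.52 and 4.35 on all arrays. As only 2 genes, they are examples of low signals and mark no floor. In whole liver, fewer cells of a type and less RNA per cell cannot be told apart. Lep, the gene mutated in ob/ob mice, is not a liver gene, and its log2 signals of 2.76 to 3.22 check no label.

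The promoters of Cish, Bcl6, Igfbp1 and Igfbp2 are shown as examples: Cish and Bcl6 hold more than 1 match in a window, Igfbp1 holds the other motif, and Igfbp2 had the largest difference of the axis. Igfals, with a match in each of 2 windows, is described without its sequence. Each runs 300 bases, from 250 before to 50 after a RefSeq start site in mouse build GRCm38.p6, with matches in capitals. The motifs searched on both strands were TTCNNNGAA, which both Stat5 proteins and Bcl6 are known to bind, and CAAAACA, part of the insulin response element known in Igfbp1. By their letters the motifs cannot overlap each other, so 0 overlaps in the 32851 promoters are no observation.
Cish, chr9:107296409-107296708, plus strand: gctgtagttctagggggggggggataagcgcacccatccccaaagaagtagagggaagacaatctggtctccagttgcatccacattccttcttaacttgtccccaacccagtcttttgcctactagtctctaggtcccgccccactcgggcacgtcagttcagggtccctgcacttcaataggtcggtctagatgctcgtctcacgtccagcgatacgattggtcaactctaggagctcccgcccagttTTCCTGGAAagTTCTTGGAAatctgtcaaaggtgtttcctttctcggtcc
Bcl6, second start site, chr16:23981234-23981533, minus strand: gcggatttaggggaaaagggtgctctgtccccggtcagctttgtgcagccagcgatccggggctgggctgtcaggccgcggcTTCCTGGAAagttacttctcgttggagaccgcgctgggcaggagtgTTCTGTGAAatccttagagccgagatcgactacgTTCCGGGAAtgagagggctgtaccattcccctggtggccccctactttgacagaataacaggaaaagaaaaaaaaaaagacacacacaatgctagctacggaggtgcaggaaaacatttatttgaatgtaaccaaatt
Igfbp1, chr11:7197537-7197836, plus strand: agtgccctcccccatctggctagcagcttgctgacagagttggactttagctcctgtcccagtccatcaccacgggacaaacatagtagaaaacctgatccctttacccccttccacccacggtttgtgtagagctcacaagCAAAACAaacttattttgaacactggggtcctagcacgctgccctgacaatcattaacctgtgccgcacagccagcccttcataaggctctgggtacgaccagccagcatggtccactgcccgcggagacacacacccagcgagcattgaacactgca
Igfbp2, first start site, chr1:72824230-72824529, plus strand: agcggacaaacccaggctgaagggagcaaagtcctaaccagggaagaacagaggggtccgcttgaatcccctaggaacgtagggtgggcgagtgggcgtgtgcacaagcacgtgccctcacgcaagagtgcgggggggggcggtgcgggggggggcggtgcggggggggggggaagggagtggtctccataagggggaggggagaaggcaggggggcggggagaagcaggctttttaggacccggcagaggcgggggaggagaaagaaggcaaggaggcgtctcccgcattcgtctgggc

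Of the 10 genes, 9 had promoters in the table (16 in all), and Socs2 had no entry. TTCNNNGAA was found in 5 of the 16, against 8.30% of all 32851 promoters. Counted by gene, it was found in 3 of the 9, against 9.55% of all 27025 genes. In Cish it occurred 2 times, beginning at positions 0 and 11, where 0 is the first of the 50 bases after the start site, and 0.457% of all promoters hold it 2 or more times. Bcl6 had it once at its first start site and 3 times at its second, and Igfals once at its first and once at its second start site. CAAAACA was found in Igfbp1 alone among the 9, at position -108, and in 6.28% of all promoters. Ghr, Stat5b, Cux2, Igf1 and Igfbp2 had neither motif in these windows. A match is a description of the letters, and distant enhancers, such as those known for Igf1, lie outside these windows.

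Ghr, the receptor at the head of the axis, had log2 signals of 10.71, 10.74 and 10.76 in N-control mice. They were 10.44, 10.52 and 10.19 in OB-control and 10.43, 10.13 and 10.09 in OB-TUDCA mice. Every ob/ob array lay below every N-control array, and the ob/ob groups overlapped each other. The log2 difference was -0.35 ± 0.11 in OB-control against N-control (SE; limma adjusted p = 0.225) and -0.52 ± 0.11 in OB-TUDCA against N-control (SE; limma adjusted p = 0.0411). With TUDCA against OB-control it was -0.17, with a 95% confidence interval from -0.42 to 0.09. The call against N-control was lost when any single N-control array was left out, with limma adjusted p = 0.128 for replicate 1, 0.111 for replicate 2 and 0.0966 for replicate 3. The same held without OB-control replicate 1 (0.0704) and, among treated mice, without replicate 2 (0.144) and without replicate 3 (0.114). It was also lost in limma with a further quantile normalization (0.0927), with only the 6 arrays compared (0.0693) and when the acinar mean was a covariate (0.0983) (adjusted p). The log2 difference in OB-TUDCA against N-control itself ranged from -0.63 to -0.46 with each array left out, and from -0.63 to -0.40 over all alternatives. Over all genes, 193 to 788 passed in that comparison with each array left out, against 646 with all 9 arrays. The probe set does not separate the receptor from the soluble binding protein that mice make from the same gene.

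Stat5b, the transcription factor that carries the signal to the nucleus, had log2 signals of 7.57, 7.40 and 7.31 in N-control and 7.30, 7.27 and 7.26 in OB-control mice. The OB-TUDCA arrays were at 7.09, 7.25 and 7.30. All 6 ob/ob arrays lay below the 3 N-control arrays, N-control replicate 3 only just above the highest of them. The log2 differences from N-control were -0.15 ± 0.090 in OB-control (SE; limma adjusted p = 0.568) and -0.22 in OB-TUDCA mice (adjusted p = 0.240), and neither passed.

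Cish, the feedback inhibitor with 2 motif matches at its start site, had log2 signals of 6.72, 4.90 and 5.66 in N-control mice. The OB-control arrays were at 4.85, 5.05 and 5.10, and the OB-TUDCA arrays at 5.28, 5.61 and 5.90. The OB-TUDCA arrays all lay above the OB-control arrays, the only gene of the 10 for which these groups did not overlap, while the N-control arrays overlapped both. The log2 difference with TUDCA was 0.60 ± 0.37 (SE; limma adjusted p = 0.579). An exact permutation test of these 6 arrays gave p = 0.1, the smallest that 3 against 3 allow. Arrays that do not overlap always give this p, so it adds nothing to the separation. Between OB-control and N-control mice it was -0.76 ± 0.37 (SE; limma adjusted p = 0.462). It was -1.19 without N-control replicate 2 (adjusted p = 0.181 by limma), the array with high acinar genes and the lowest Cish of its group, and -0.28 without N-control replicate 1 (adjusted p = 0.813).

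Socs2, the other inhibitor, is the gene whose loss is known to give oversized mice. Its log2 signals were 5.77, 5.63 and 5.95 in N-control, 5.04, 5.94 and 5.23 in OB-control and 5.42, 6.03 and 5.56 in OB-TUDCA mice. All groups overlapped. OB-control replicate 2 was high among OB-control arrays on both probe sets, at 5.47 on the first and 6.42 on the second. The log2 difference of OB-control from N-control was -0.38 ± 0.23 (SE; limma adjusted p = 0.571), and -0.65 without OB-control replicate 2 (adjusted p = 0.145). Taken separately, the probe sets differed by -0.30 and -0.46, in the same direction. With TUDCA the difference from OB-control was 0.26 (95% confidence interval -0.26 to 0.79), and 0.53 without OB-control replicate 2 (adjusted p = 0.277 by limma).

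Bcl6, a repressor that competes with Stat5 at shared sites, had log2 signals of 6.19, 8.16 and 6.31 in N-control mice. They were 7.24, 7.55 and 7.82 in OB-control and 7.82, 7.21 and 6.73 in OB-TUDCA mice. N-control replicate 2 had the highest value of all 9 arrays and the other N-control arrays the lowest ones, so the groups overlapped through that array. The log2 difference of OB-control from N-control was 0.65 ± 0.48 (SE; limma adjusted p = 0.650), and 1.28 without that array (adjusted p = 0.149). In OB-TUDCA against N-control it was 0.37, and 1.002 without that array (adjusted p = 0.145 by limma). On the same arrays Cish ran the other way: N-control replicate 1 had the highest Cish and the lowest Bcl6 of all 9. With the acinar mean as a covariate, the log2 difference of OB-control from N-control was 1.24 for Bcl6 (adjusted p = 0.181 by limma). For Cish it was -1.16 (adjusted p = 0.209 by limma), and neither passed. The acinar mean is high on 1 array only, so this fit comes close to leaving that array out. The cause of the values of Bcl6 and Cish on that array was not tested.

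Cux2, the transcription factor that is normally found in female liver, had log2 signals of 4.83, 5.004 and 4.43 in these male N-control mice. They were 5.02, 5.90 and 4.98 in OB-control and 5.38, 5.11 and 5.02 in OB-TUDCA mice. The OB-TUDCA arrays all lay above the N-control arrays, while OB-control replicate 3 fell just below N-control replicate 2. The log2 differences from N-control were 0.55 ± 0.24 in OB-control (SE; limma adjusted p = 0.414) and 0.41 ± 0.24 in OB-TUDCA mice (SE; limma adjusted p = 0.416). The first rests largely on OB-control replicate 2, and was 0.25 without it (adjusted p = 0.638 by limma). The background of this probe set is not known, and signals this low may understate a change.

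Igf1, the main endocrine product of the axis, had log2 signals of 10.34, 10.31 and 10.14 in N-control mice. They were 9.67, 10.14 and 9.74 in OB-control and 10.005, 9.92 and 9.94 in OB-TUDCA mice. All ob/ob arrays lay below all N-control arrays, though OB-control replicate 2 was only just below N-control replicate 3. The log2 difference was -0.41 ± 0.12 in OB-control (SE; limma adjusted p = 0.185), a signal 1.33-fold lower, and -0.31 ± 0.12 in OB-TUDCA mice (SE; limma adjusted p = 0.214). Without OB-control replicate 2 the first was -0.56 and passed (adjusted p = 0.0269 by limma), and under the other settings it did not pass (limma adjusted p from 0.0592 to 0.488). That array had the Igf1 signal of its group nearest to N-control mice, so leaving it out could only widen the difference. Between the ob/ob groups the difference was 0.11 (95% confidence interval -0.17 to 0.38).

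Igfals, which holds Igf1 in serum, had log2 signals of 7.73, 7.85 and 7.92 in N-control, 7.33, 7.84 and 6.89 in OB-control and 7.42, 7.12 and 7.43 in OB-TUDCA mice. The OB-TUDCA arrays all lay below the N-control arrays, and OB-control replicate 2 was the only ob/ob array inside the N-control range. The log2 differences from N-control were -0.48 ± 0.20 in OB-control (SE; limma adjusted p = 0.391) and -0.51 ± 0.20 in OB-TUDCA mice (SE; limma adjusted p = 0.225). Without OB-control replicate 2 the first was -0.72 (adjusted p = 0.0683 by limma). Between the ob/ob groups it was -0.03 (95% confidence interval -0.49 to 0.43).

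**Figure D2:**
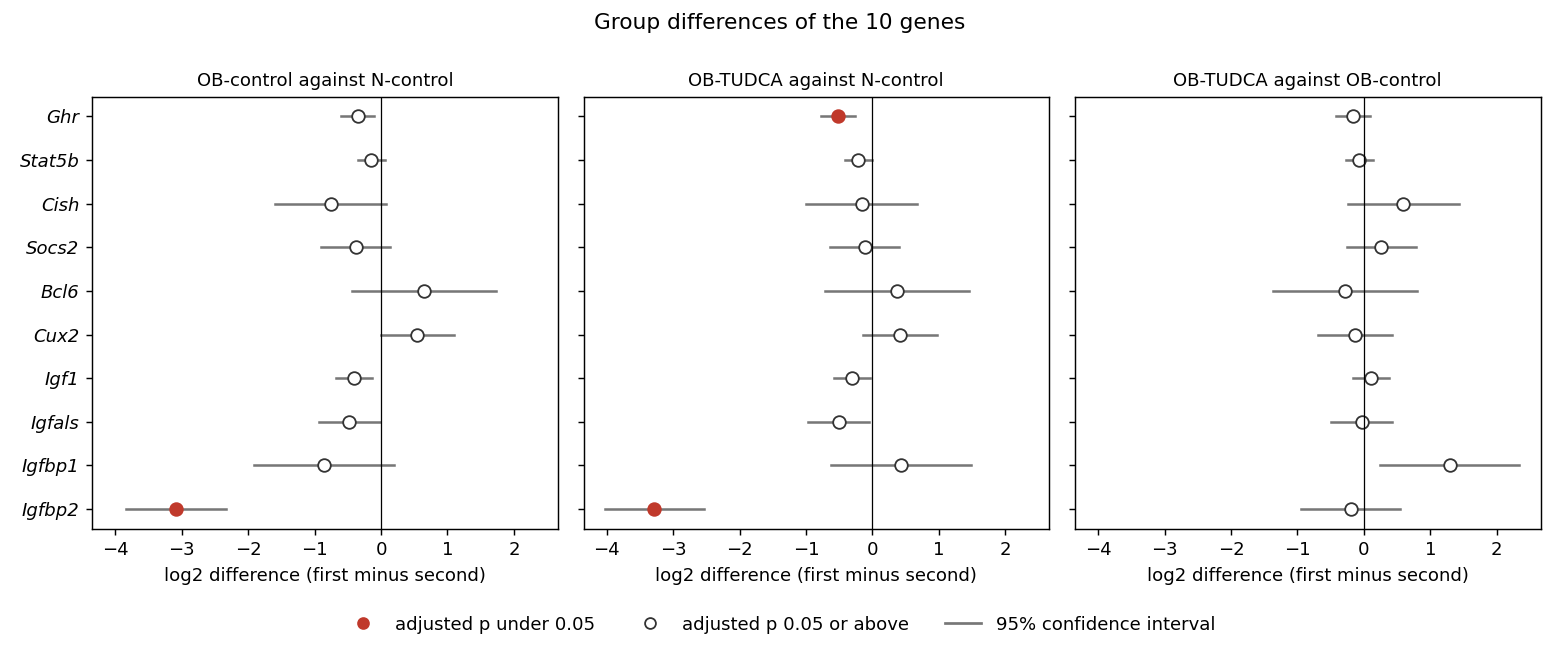
Log2 difference of each gene (first group minus second, horizontal axis) in the 3 comparisons, with 95% confidence intervals from limma and filled points at an adjusted p under 0.05. Only Igfbp2, in both comparisons with N-control mice, and Ghr, in OB-TUDCA against N-control, are filled.

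Igfbp1, the binding protein with the insulin response element, had log2 signals of 9.75, 10.82 and 9.72 in N-control, 8.51, 10.18 and 9.02 in OB-control and 10.37, 10.02 and 11.20 in OB-TUDCA mice. OB-control replicates 1 and 3 were the lowest of all 9 arrays, and OB-control replicate 2 lay above OB-TUDCA replicate 2, so the ob/ob groups overlapped. The log2 difference with TUDCA was 1.29 ± 0.47 (SE; limma adjusted p = 0.299), with a 95% confidence interval from 0.24 to 2.34. By size it ranked 36 among the 19938 genes of that comparison. It stayed positive with each array left out, from 0.93 to 1.76, and did not pass in any (adjusted p from 0.135 to 0.602 in limma). OB-control against N-control had a difference of -0.86 ± 0.47 (SE; limma adjusted p = 0.514), which was -1.33 without OB-control replicate 2 (adjusted p = 0.197) and -0.50 without N-control replicate 2 (adjusted p = 0.766). OB-TUDCA and N-control mice differed by 0.43 ± 0.47 (SE; limma adjusted p = 0.685).

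Igfbp2, a binding protein that hepatocytes secrete, had log2 signals of 9.53, 9.48 and 9.67 in N-control mice. They were 6.46, 6.82 and 6.15 in OB-control and 6.57, 5.38 and 6.88 in OB-TUDCA mice. The ob/ob arrays lay far below the N-control arrays, and the lean group had the narrowest range. Igfbp2 fell by 3.09 log2 units ± 0.33 in OB-control mice (SE; limma adjusted p = 0.00363) and by 3.28 ± 0.33 in OB-TUDCA mice (SE; limma adjusted p = 0.00231). By size these ranked 10 and 11 among all 19938 genes. Both passed with each of the 9 arrays left out in turn, with differences from -3.26 to -2.92 (adjusted p from 0.000225 to 0.0274 in limma) and from -3.58 to -2.84 (adjusted p from 0.000894 to 0.0165). They also passed without N-control replicate 2, the array with high acinar genes, at -3.13 and -3.33 (adjusted p = 0.0222 and 0.0130 by limma). TUDCA against OB-control gave -0.20 ± 0.33 (SE; limma adjusted p = 0.862), with a 95% confidence interval from -0.95 to 0.55.

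The ob/ob groups were also pooled against N-control mice, a comparison chosen after the values had been seen, in which 3 of the 6 ob/ob arrays come from treated mice. Here 4 of the 10 genes, Ghr, Stat5b, Igf1 and Igfbp2, had all 6 ob/ob arrays below all 3 N-control arrays, as 3.65% of all genes did, and 0 had them all above (4.42% of all genes). Igfbp2 fell, by a log2 difference of -3.18 ± 0.29 (SE; limma adjusted p = 0.000862), where 2.29% of all genes passed and 1.36% fell. For Ghr the difference was -0.44 ± 0.098 (SE; limma adjusted p = 0.0566), for Igf1 -0.36 (adjusted p = 0.123) and for Stat5b -0.18 (adjusted p = 0.288). In exact permutation tests of 6 against 3 arrays, two-sided and not adjusted, p was 0.0119 for Igfbp2 and Stat5b, the smallest possible, and 0.0238 for Ghr and Igf1. Arrays that do not overlap put this p at or near its smallest value, so it adds nothing to the separation of these 4. For the other genes of the axis p in the same test was from 0.0595 to 0.726.

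**Figure D3:**
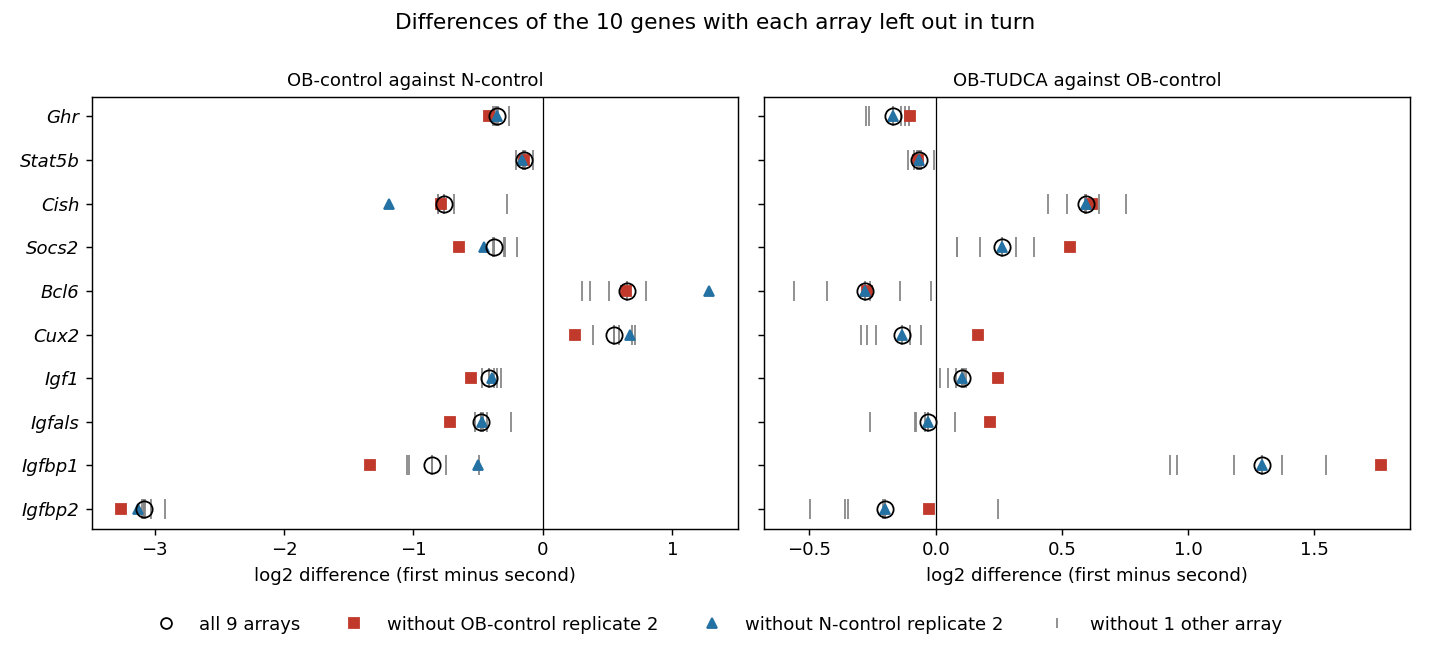
Log2 difference of each gene (first group minus second, horizontal axis) from limma with all 9 arrays and with each array left out in turn, for OB-control against N-control and OB-TUDCA against OB-control. Without OB-control replicate 2 (squares) Igf1, Igfals, Socs2 and Igfbp1 are farther below 0 in OB-control mice, and without N-control replicate 2 (triangles) Cish and Bcl6 move most.

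As that plot shows, leaving out OB-control replicate 2 took Igf1, Igfals, Socs2, Igfbp1, Ghr and Igfbp2 farther from the N-control values and Cux2 nearer to them. Without it the TUDCA differences of Cux2 and Igfals turned to 0.17 and 0.21, from -0.13 and -0.03. Without OB-TUDCA replicate 2, which had the lowest Igfbp2 of all arrays, that gene's difference with TUDCA was 0.25 in place of -0.20. None of these passed in limma (adjusted p from 0.649 to 0.777).

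The other genes of the receptor pathway, a list of Jak2, further Stat, Socs and phosphatase genes and the insulin receptor substrates, showed no call. Of 20 listed, 18 were measured, and in OB-control against N-control 0 rose and 0 fell in limma (unadjusted p under 0.05 for 1 higher and 1 lower gene, and for 12.1% of all genes), with a median log2 difference of 0.01 against 0.02 over all genes. With TUDCA against OB-control 16 of 18 had a higher mean, with a median of 0.16 against 0.01 over all genes, and 0 passed in limma (unadjusted p under 0.05 for 2 higher and 0 lower genes, and for 12% of all genes). In OB-TUDCA against N-control 0 passed in limma as well (unadjusted p under 0.05 for 6 higher and 1 lower gene, and for 18.5% of all genes), and the median was 0.14. Without OB-control replicate 2 Stat3, which carries the signal of interleukin 6 and leptin, passed as higher there.

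Of 14 other genes of the insulin-like growth factor system, Igfbp3 rose in OB-control compared with N-control mice and 13 did not pass. Of all genes 0.456% rose in that comparison. Igfbp3, the chief carrier of Igf1 in serum together with Igfals, had log2 signals of 6.40, 6.44 and 6.40 in N-control, 7.17, 7.17 and 6.77 in OB-control and 6.88, 6.92 and 6.82 in OB-TUDCA mice. Both ob/ob groups lay above the N-control arrays, the reverse of Igfbp2. The log2 difference was 0.62 ± 0.11 in OB-control (SE; limma adjusted p = 0.0359) and 0.46 in OB-TUDCA mice (limma adjusted p = 0.0592). Stc1, a glycoprotein that inhibits the protease Pappa, rose by 0.94 ± 0.16 in OB-TUDCA compared with N-control mice (SE; limma adjusted p = 0.0172), at log2 signals of 3.21 to 4.58. These are low, largely within the range of the adipocyte genes above (2.52 to 4.35). Stc1 was the only gene of the list to pass in that comparison, where 1.35% of all genes rose. No gene of this list passed in limma between OB-TUDCA and OB-control mice (unadjusted p under 0.05 for 1 higher and 0 lower genes, and for 12% of all genes), and none in any comparison without N-control replicate 2. Without OB-control replicate 2 Igfbp3 did not pass.

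Genes whose liver expression follows the male or female pattern of growth hormone had larger differences than most of the axis. The lists held 14 and 18 genes. Of 13 measured male-biased genes 7 fell and 0 rose in OB-control compared with N-control mice (median log2 difference -1.32), where 0.492% of all genes fell. Of 14 female-biased genes 7 rose and 0 fell (median 1.19), where 0.456% of all genes rose. Slco1a1, an organic anion transporter of male liver, fell by 7.27 log2 units ± 0.16 (SE; limma adjusted p = 6.95e-08), and Cyp2b9, a cytochrome P450 of female liver, rose by 4.67 ± 0.14 (SE; limma adjusted p = 4.18e-07). The others to fall furthest were Hsd3b5 (by 5.90), Cyp7b1 (by 3.22), Cyp4a12a, Cyp4a12b and Cyp2d9, male-typical enzymes of steroid, bile acid and fatty acid metabolism, and the others to rise furthest Cyp2b13 (by 5.99), Cyp17a1 (by 2.14), Sult3a1, Acot3 and Abcd2. The counts were 8 fallen and 8 risen in OB-TUDCA against N-control, 6 of each list being the genes called in OB-control too, where 1.35% of all genes rose and 1.89% fell. Elovl3, Nudt7, Nipal1 and Tox passed here but not in OB-control against N-control. Between the ob/ob groups none of them passed (limma adjusted p = 0.507, 0.466, 0.579 and 0.177). The arrays of the ob/ob groups did not overlap for Elovl3, lower with TUDCA, and for Tox, higher with TUDCA. Over the lists, 1 male-biased gene lay higher with TUDCA without overlap and 3 lower, of 13. Of the 14 female-biased genes 2 lay higher and 5 lower, where 13.8% of all genes did not overlap in either direction. Cyp2b13 had the largest of these differences, -2.02 ± 0.47 (SE; limma adjusted p = 0.109). With TUDCA against OB-control 0 of the 27 passed in limma (at an unadjusted p under 0.05, 1 male-biased gene was higher and 2 lower, and 1 female-biased gene was higher and 5 lower, as were 12% of all genes in either direction). Without N-control replicate 2, 5 male-biased genes fell and 3 female-biased genes rose in OB-control mice, and without OB-control replicate 2 the counts were 5 and 5. Close relatives such as Cyp2b9 and Cyp2b13, or Cyp4a12a and Cyp4a12b, may share probes. Some of these signals were low, no higher than those of the adipocyte genes above (2.52 to 4.35). Sult3a1 lay at 1.95 to 1.97 in N-control and 2.85 to 4.23 in OB-control mice. In OB-control mice Hsd3b5 lay at 2.57 to 2.72 and Slco1a1 at 2.87 to 3.09, and in N-control mice Cyp2b13 lay at 2.50 to 4.01. The sizes of these differences may be understated.

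**Figure D4:**
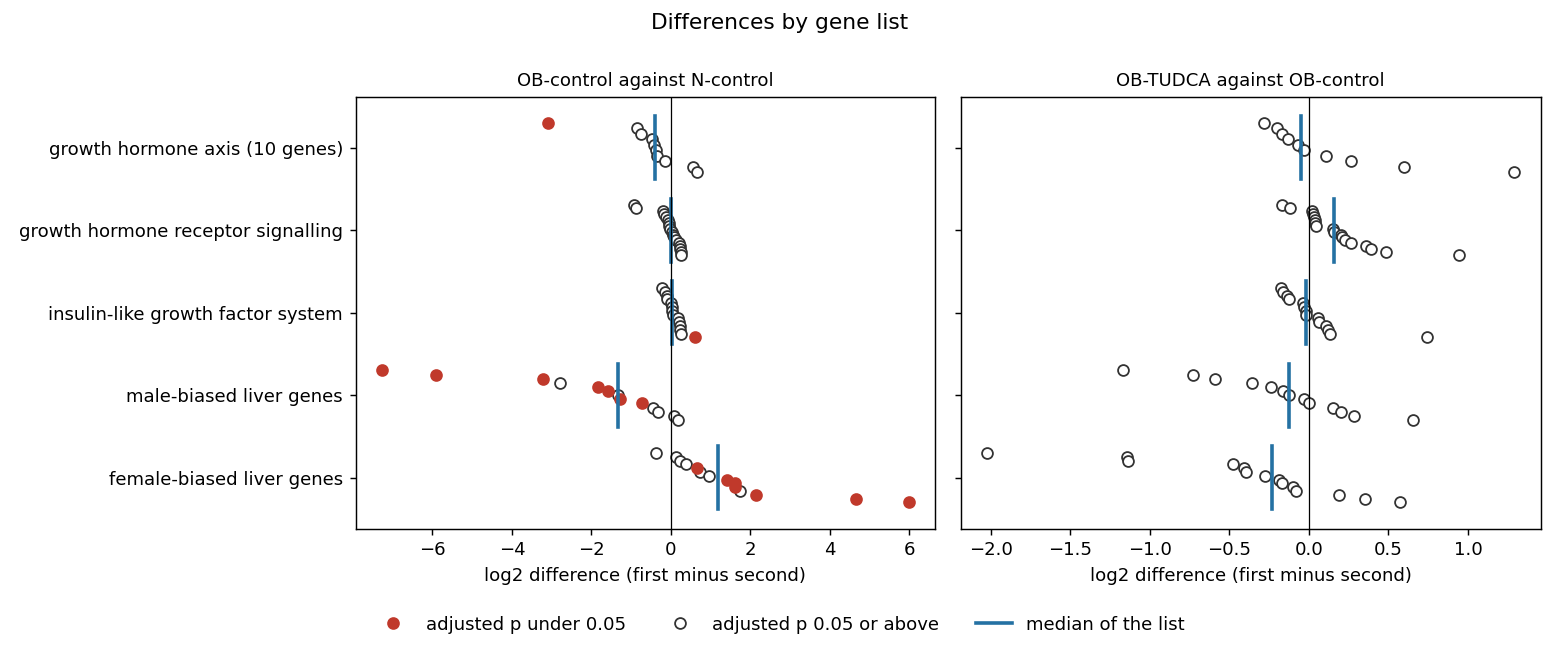
Log2 difference (first group minus second, horizontal axis) of each measured gene of the axis and of the 4 gene lists, 1 point a gene, filled at an adjusted p under 0.05, with a bar at the list's median. The horizontal axes differ: OB-control against N-control runs from about -7.27 to 5.99, and OB-TUDCA against OB-control has no filled point.

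The genes that followed a member most closely were sought by Pearson r over the 9 arrays, among the genes at or above the median signal. These r mix differences between the 3 groups with those within them, and with 9968 genes to choose from high values are to be found for any gene, so they carry no p. Igfbp2 was followed most closely by Lifr, the receptor for leukemia inhibitory factor (r = 0.980), Bst2 (r = 0.977) and Cyp1a2, a cytochrome P450 of the pericentral liver (r = 0.976). Cyp1a2 had a mean log2 signal of 11.73 in N-control mice, against 10.49 in untreated and 10.45 in treated ob/ob mice. Ghr was followed by Enpp3, an ectonucleotidase (r = 0.992), Syt1 (r = 0.987) and Rdx (r = 0.985), and Enpp3 averaged 10.04 in N-control mice, 9.31 in untreated and 8.83 in treated ob/ob mice. Igf1 was followed by Zfp36, which destabilizes mRNA (r = 0.965), Pdia5, a protein disulfide isomerase (r = 0.963), and Sgk3 (r = 0.960).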

How the data were processed

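Affymetrix Mouse Gene 1.0 ST arrays, 3 a group, were hybridized with liver RNA. The deposited values are log2 signals per probe set, which the authors obtained with RMA in Affymetrix Expression Console (version not given in the sources used here). RMA corrects the background, makes the distributions of the arrays alike and summarizes probes, so a shift common to all genes would be removed. The values were used as deposited.

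Of 35556 probe sets, the 21789 that the platform annotation pairs with exactly 1 symbol were averaged per symbol, which left 19938 genes. Those with several symbols (1621) and the 12146 unnamed here were left out. Groups came from the sample titles. The titles call arrays of a group biological replicates. The methods give 6 mice a group, of which 3 were arrayed, and p-values measure the spread between these arrays.

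Group means were fitted with limma 3.58.1 in R 4.3.3 (6 residual and 3.33 prior degrees of freedom). Tests were two-sided, p-values were adjusted by Benjamini-Hochberg over the 19938 genes, and genes under 0.05 were called. The fit was tested on simulated data. SAM and the fold limits of the methods were not used. Limma took their place, to give each named gene a standard error and a confidence interval. The 10 genes, the gene lists and the tests were chosen with earlier results of these data known. Besides the 10, genes were named where they passed in a list (at most 6 per list and comparison) or, 3 each, for the highest Pearson r with Igf1, Ghr and Igfbp2. Nudt7 and Tox were named beyond that limit. Arrays hold no read depth, and their number limits the precision. Alternatives were a filter on low signals (33.3% of genes left out), a further quantile normalization, median centring, a variance prior with trend, array weights, only the arrays compared, each probe set on its own, an acinar covariate, a block for replicate number, leaving out each array and, chosen after seeing the data, both ob/ob groups against N-control. Promoters were taken from RefSeq (GRCm38.p6). Figures were drawn with matplotlib 3.10.9.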

Additional observations from a re-analysis of the deposited data

How the results depend on the processing

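The count of genes of the axis past the threshold in OB-control against N-control was 1, and ranged from 1 to 2 with each array left out; the second gene was Igf1, without OB-control replicate 2. In OB-TUDCA against OB-control it was 0 under all 18 alternatives. Under some of these 0 of all 19938 genes passed, so the count there says nothing particular to the axis. They were only the 6 arrays compared, the acinar covariate, and leaving out N-control replicate 2, OB-control replicate 1 or OB-TUDCA replicate 2 or 3. In OB-TUDCA against N-control it was 2, ranged from 1 to 2 with each array left out, and was 1 with a further quantile normalization, 1 with only the 6 arrays compared and 1 when the acinar mean was a covariate. The gene lost was Ghr each time, and the cause was not tested. Of 553 differences of the 10 genes under alternatives, 537 kept their direction and side of the threshold, 9 lost a call (all of Ghr), 1 gained it and 6 turned sign. The 6 came with an array left out, and over these settings Cux2 ranged from -0.29 to 0.17, Igfals from -0.26 to 0.21 and Igfbp2 from -0.50 to 0.25 in OB-TUDCA against OB-control, and Cish from -0.59 to 0.32 and Socs2 from -0.30 to 0.00870 in OB-TUDCA against N-control (log2 differences). Over all genes, the number past the threshold was 189 in OB-control against N-control (60 to 457 under the alternatives), 60 in OB-TUDCA against OB-control (0 to 135) and 646 in OB-TUDCA against N-control (193 to 871).

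Neither the sample titles nor the methods name a pairing by replicate number. The deviations of same-numbered arrays from their group means correlated by -0.075 to 0.209 across genes. In OB-control and OB-TUDCA against N-control every array correlated best with its own number, a hint from the data and not from the design. In OB-TUDCA against OB-control this did not hold for every array, and whether the arrays are paired was not tested. With the replicate number as a block, the counts of genes of the axis past the threshold were 1, 0 and 2 in the order above, and Igfbp2 differed by -3.09 (adjusted p = 0.0116 by limma) and -3.28 (adjusted p = 0.00647). Over all genes 189, 60 and 871 passed with this block, against 189, 60 and 646 without it. The background of single probe sets is not given, so changes of genes with low signals, such as Cux2, may be understated.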
